A study of Mus musculus with 6 samples.

Results

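The genes described here are 10 components of bone morphogenetic protein (BMP) signalling: the ligands Bmp2, Bmp4, Bmp6 and Bmp7, the secreted antagonists Nog, Chrd, Fst and Grem1, and the inhibitory Smads Smad6 and Smad7. They were chosen by name, and each was read from the probe set that carries its symbol alone, which left 1 probe set for each of the 10, out of 22180 genes measured in this way. The arrays came from demyelinated lesions of mouse brain, 1 macrodissected lesion per array, in a study of what astrocyte loss does to the demyelinated lesion. The 3 transgenic arrays are from mice in which non-proliferative GFAP+ astrocytes can be removed, and the 3 wild type arrays are from mice without that capacity. In both genotypes the lesion was made at 5 to 6 weeks of age by injecting LPC, a detergent-like lipid that destroys myelin. CID, the compound that sets off the ablation, was injected 48 hours later, and tissue was taken 7 days after the lesion. The protocol is written for both genotypes alike, so the wild type lesions are taken to carry the same LPC and CID treatment. The sources used here give neither the promoter that drives the transgene, nor the strain, nor the sex, nor whether each lesion had an animal of its own. The p-values therefore measure only the spread between these samples, which may be technical.

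BMP ligands are secreted dimers that bring type I and type II receptor kinases together, and these phosphorylate Smad1, Smad5 and Smad9, which enter the nucleus with Smad4 and switch on targets such as the Id genes. Noggin, chordin, follistatin and gremlin bind ligands outside the cell, while Smad6 and Smad7 act inside it and are themselves induced by the signal, as feedback. In the central nervous system BMP signalling is known for steering precursors towards astrocytes and for holding back the maturation of oligodendrocytes, the cells that make myelin. In mice, Smad7 is known to be needed for oligodendrocyte differentiation.

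Stretches near the starts of Smad6, Chrd and Bmp6 are shown because Smads can act at the promoters of their own regulators. Promoter windows from RefSeq (build GRCm38.p6), reaching from 250 bases before to 50 bases after the gene start, were held for 5 of the 10 genes: Bmp4, Bmp6, Chrd, Grem1 and Smad6. Each was searched on both strands for GTCTAGAC, the Smad palindrome, for GGCGCC, a GC-rich palindrome read by Smad1 and Smad5, and for CAGAC, the short Smad box. None of the 3 motifs overlaps another in the stretches printed. Capitals mark the motif that each stretch was printed for.
Smad6, chr9:64022035-64022109, minus strand, from position -50 to position 25 counted from the start: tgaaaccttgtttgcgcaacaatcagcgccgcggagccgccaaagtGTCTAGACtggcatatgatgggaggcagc
Chrd, chr16:20732877-20733026, plus strand, from position -250 to position -101 counted from the start: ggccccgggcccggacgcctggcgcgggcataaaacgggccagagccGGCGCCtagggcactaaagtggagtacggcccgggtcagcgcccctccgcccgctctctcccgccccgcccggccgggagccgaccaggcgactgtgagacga
Bmp6, chr13:38345566-38345715, plus strand, from position -150 to position -1 counted from the start: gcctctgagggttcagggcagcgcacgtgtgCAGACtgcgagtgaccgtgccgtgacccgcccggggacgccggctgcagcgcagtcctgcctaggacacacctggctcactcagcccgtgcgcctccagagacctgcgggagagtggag

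GTCTAGAC was found in 0.213% of 32851 such windows, 1 of them that of Smad6, where it spans the annotated start. GGCGCC was in 11.9% of windows, including those of Chrd and Grem1, and CAGAC in 49.6%, including those of Bmp6, Chrd and Grem1. The Bmp4 window held none of the 3. A match is a string of letters and was not tested for binding.

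**Figure D1:**
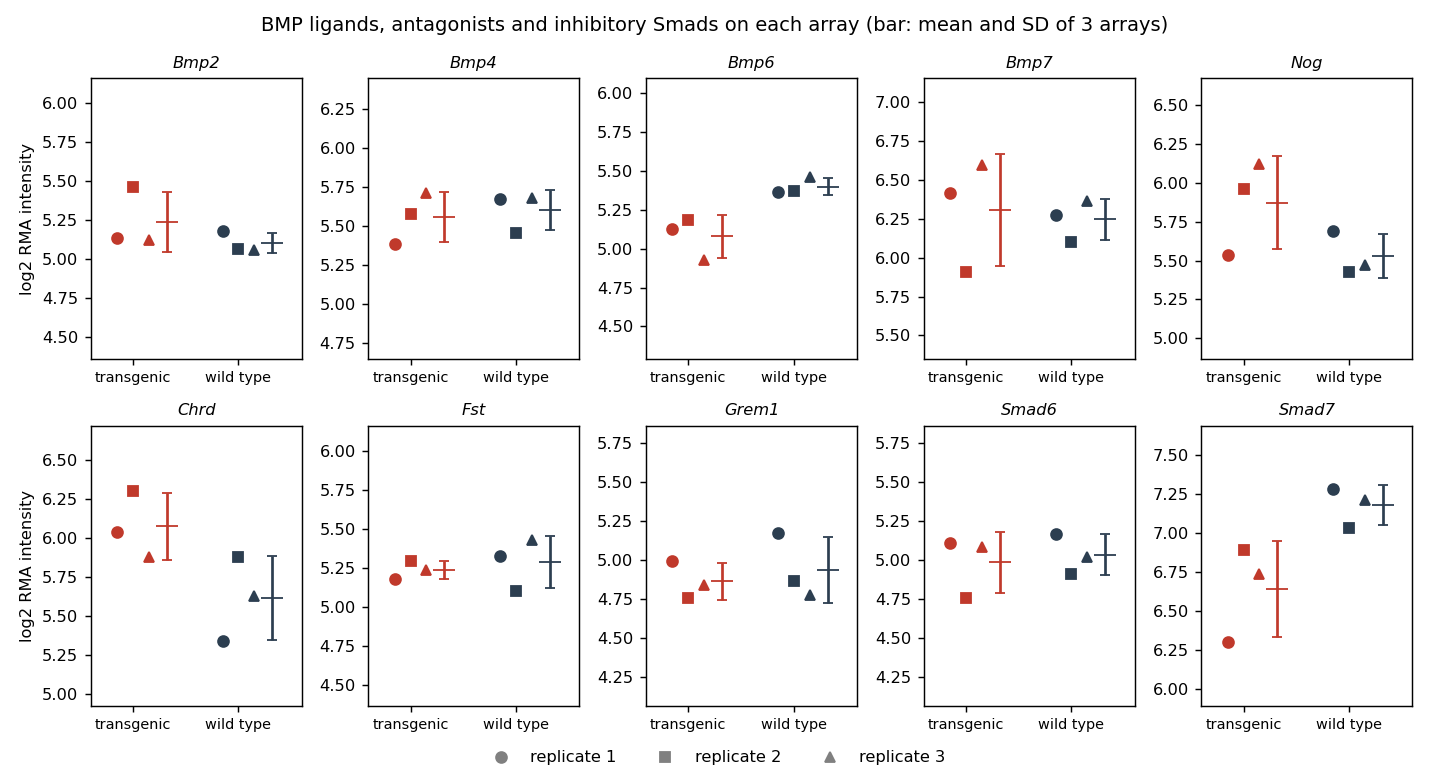
Log2 RMA intensity of the 10 genes on each array, transgenic left and wild type right, with each array's symbol giving its replicate number and the bar the mean and SD of 3 arrays; every panel spans the same height on the log2 scale. Only in Bmp6 and Smad7 do the 3 transgenic arrays all lie below the 3 wild type arrays, and in no panel do all lie above.

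Transgenic lesions had lower means of Smad7 and Bmp6 and higher means of Chrd and Nog than wild type lesions, whereas Bmp2, Bmp4, Bmp7, Fst, Grem1 and Smad6 each differed by 0.14 or less on the log2 scale. Of the 10 genes, 6 had a lower and 4 a higher mean, with a median log2 difference of -0.05 (transgenic minus wild type), beside -0.01 over the 22180 genes. None passed the adjusted threshold of 0.05 in limma (adjusted p 0.505 to 0.958), and neither did any of the 41345 probe sets (0%). At an unadjusted p under 0.05 there were 2 of the 10, Smad7 lower and Chrd higher, where 8.87% of all probe sets reached that level, 4.05% lower and 4.82% higher. Groups did not overlap for 2 of the 10, both lower, beside 16.1% of all probe sets, 7.6% lower and 8.54% higher. Over the 22180 genes, read from 1 probe set each as the 10 were, 6.98% had an unadjusted p under 0.05 in limma. Groups did not overlap for 15.4% of these genes.

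The 95% confidence intervals give the differences in probe set intensity compatible with these arrays in the fit without covariates. They do not bound a change in RNA where a probe set may read background. Of the 10 genes, 5 lay under the median level of all probe sets. Nor do the intervals take account of the overlap of sex with genotype described below. The interval held 0 for 8 of the 10 genes, and for all 10 it stayed within a 1.98-fold difference in either direction. The narrowest bound was that of Fst, 1.31-fold, and the widest that of Smad7. The SD was larger in the transgenic than in the wild type group for 7 of the 10.

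Among the arrays, levels of Xist and the Y-linked Eif2s3y read transgenic replicates 1 and 3 as male and transgenic replicate 2 and all wild type replicates as female. In every fit with sex as a covariate, the genotype difference therefore rests on transgenic replicate 2 against the wild type arrays. Striatal neuron genes were high in wild type replicates 2 and 3 alone, with list means of 8.16 and 8.79 against 5.99 to 6.53 on the other arrays; the part of this in the results below was not tested. Gfap itself, the gene that marks the targeted cells, stood at 8.91, 8.82 and 9.24 in transgenic lesions and at 9.83, 9.18 and 9.09 in wild type lesions (adjusted p 0.695 in limma). No probe set for the ablation transgene was used here. Of the marker lists not taken up below, microglia and macrophages had summed intensities of 1861 to 3371 in transgenic and 1972 to 6043 in wild type lesions. Mural cells had 632 to 796 in transgenic and 683 to 761 in wild type lesions, and ependyma and choroid plexus 285.8 to 391.9 in transgenic and 361.9 to 455.5 in wild type lesions. Median log2 levels of the arrays lay between 5.34 (transgenic replicate 2) and 5.59.

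Smad7 blocks type I receptors and recruits ubiquitin ligases to them, and so damps both BMP and TGF-beta signals. Its log2 level was 6.30, 6.89 and 6.74 in transgenic replicates 1, 2 and 3, against 7.28, 7.04 and 7.22 in wild type replicates 1, 2 and 3. All transgenic arrays were lower than all wild type arrays, and transgenic replicate 1 was the lowest. Means were 6.64 ± 0.31 in transgenic and 7.18 ± 0.13 in wild type lesions (SD, n = 3 each), a difference of -0.54 (SE 0.19, 95% interval -0.98 to -0.09), or 1.45-fold lower. The unadjusted p in limma was 0.0242 and the adjusted p 0.505. Over all genes, 2.35% had a difference as far down or further.

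In lesion tissue, fewer cells of a type and less RNA per cell cannot be told apart. Smad7 moved with several marker lists, those of the oligodendrocyte lineage among them. The mature oligodendrocyte list was lower in all 7 measured genes, without overlap in any, and its summed intensity ran from 3263 to 6331 in transgenic and from 8070 to 10227 in wild type lesions. The precursor list was lower in 6 of 7 genes, with sums of 745 to 973 in transgenic and 1053 to 1359 in wild type lesions. In that list the groups did not overlap for 3 genes, Olig1, Olig2 and Sox10. They overlapped for Gpr17 (difference -0.66), Pdgfra (-0.40), Cspg4 (-0.12) and Neu4 (0.14). From lowest to highest, Smad7, the mature list and the precursor list all put the arrays in the order transgenic 1, 3 and 2, then wild type 2, 3 and 1. That identity was noticed among 120 pairs of a member and a marker list, of which these 2 alone shared their order. Because both lists have the same order, a match to 1 is a match to the other. Of all genes, 0.595% share that order. The astrocyte list was lower in 6 of 8 genes, with sums of 2552 to 3927 in transgenic and 3848 to 4427 in wild type lesions. Over the 6 arrays, Smad7 correlated with the list mean at 0.97 for mature oligodendrocytes and 0.96 for precursors (Pearson). For astrocytes the value was 0.91, and for subventricular neuroblasts, lower in all 6 measured genes, 0.72. For the remaining cell type lists it ran from -0.69 (fibroblasts and meninges) to 0.62 (mural cells). All these correlations pool both genotypes, so a difference between the groups in gene and list is enough to make them large. The share of all genes that correlate as strongly was not counted. Whether the share of any of these cell types accounts for the difference in Smad7 was not tested.

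**Figure D2:**
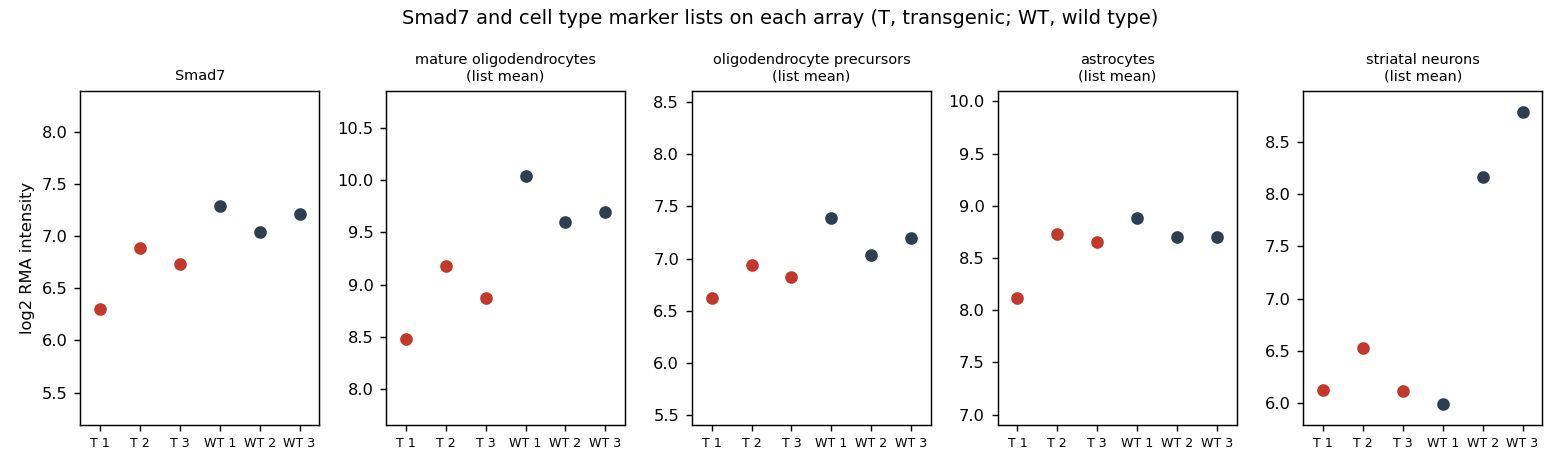
Log2 RMA intensity of Smad7 and the mean log2 intensity of 4 marker lists on each array, transgenic (T) left and wild type (WT) right, with all panels spanning the same height. Smad7 and both oligodendrocyte lists share 1 order of arrays, whereas the striatal list is high only in wild type replicates 2 and 3.

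The Smad7 difference also went with the sex read from the arrays. Among the female arrays, transgenic replicate 2 lay 0.29 below the wild type mean (difference -0.29), with no test since 1 array stood for the transgenic group. With sex as a covariate, a fit in which the genotype difference rests on that same array, the difference was -0.29 at an unadjusted p of 0.255 (adjusted p 0.525 in limma). The difference shrank to -0.37 without transgenic replicate 1, at an unadjusted p of 0.0479. Over the fits that leave out 1 array the unadjusted p ran from 0.00934 to 0.0779, and it passed 0.05 without wild type replicate 1 (0.0779) or wild type replicate 3 (0.0669).

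Smad6, which is more selective for BMP than for TGF-beta signals, showed close group means. It stood at 5.11, 4.76 and 5.09 in transgenic and at 5.17, 4.91 and 5.02 in wild type replicates 1, 2 and 3. The groups overlapped throughout, and the means of 4.99 ± 0.20 in transgenic and 5.03 ± 0.13 in wild type lesions (SD, n = 3 each) differed by -0.05 (SE 0.16, adjusted p 0.957 in limma). The interval reached from -0.43 to 0.33, so a difference in intensity of up to 1.34-fold is compatible with these arrays. Its level lay at the 39.2th percentile of all probe sets, and without detection calls it is unknown whether it rose above background. Whether Smad6 RNA followed Smad7 can therefore not be told. With sex as a covariate the Smad6 difference was -0.27 and that of Smad7 -0.29.

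Of Bmp2, Bmp4, Bmp6 and Bmp7, it was Bmp6, which endothelial cells make among other sources, whose groups did not overlap. Its log2 level was 5.12, 5.19 and 4.93 in transgenic replicates 1, 2 and 3, against 5.36, 5.37 and 5.46 in wild type replicates 1, 2 and 3. All transgenic arrays were lower, transgenic replicate 3 the most. Means were 5.08 ± 0.14 in transgenic and 5.40 ± 0.06 in wild type lesions (SD, n = 3 each), a difference of -0.32 (SE 0.14), or 1.25-fold lower. The 95% interval ran from -0.65 to 0.01, the unadjusted p was 0.0561 and the adjusted p 0.581 in limma. The endothelial list had 4 of 8 genes lower and 4 higher, with sums of 397 to 579 in transgenic and 486 to 516 in wild type lesions, so these markers did not differ in one direction. Neuroblast markers of the subventricular zone were lower in all 6 measured genes. Their sums were 314 to 401 in transgenic and 411 to 670 in wild type lesions. Over the 6 arrays, both genotypes pooled, Bmp6 correlated with the neuroblast list mean at 0.85 (Pearson). The value was 0.79 for mature oligodendrocytes, 0.73 for precursors and -0.76 for fibroblasts and meninges. For the remaining cell type lists it ran from -0.47 (neurons) to 0.69 (striatal neurons). The part of any of these cell types in the Bmp6 difference was not tested. With sex as a covariate the Bmp6 difference was -0.21, at an unadjusted p of 0.289.

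Bmp4, the ligand most often tied to the switch of precursors towards astrocytes, showed close group means. It stood at 5.39, 5.57 and 5.71 in transgenic and at 5.67, 5.46 and 5.68 in wild type replicates 1, 2 and 3. The highest and the lowest array were both transgenic, and the means of 5.56 ± 0.16 in transgenic and 5.60 ± 0.13 in wild type lesions (SD, n = 3 each) differed by -0.05 (SE 0.15, adjusted p 0.954 in limma). Its interval, -0.41 to 0.31, leaves room for a change in intensity of up to 1.33-fold.

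Bmp2, a close relative of Bmp4, read 5.13, 5.46 and 5.12 in transgenic and 5.18, 5.07 and 5.06 in wild type replicates 1, 2 and 3. Transgenic replicate 2 alone stood above the remaining 5 arrays. The difference was 0.14 (SE 0.15, adjusted p 0.843 in limma), and 0.026 without transgenic replicate 2. Bmp7, a ligand also made by the meninges, read 6.42, 5.91 and 6.60 in transgenic and 6.27, 6.10 and 6.36 in wild type replicates 1, 2 and 3. Its transgenic arrays held both the lowest and the highest value, with an SD of 0.36 in transgenic and 0.13 in wild type lesions. The difference was 0.06 (SE 0.21, adjusted p 0.958 in limma), and its sign turned with sex as a covariate (-0.34) and without transgenic replicate 3 (-0.085).

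The antagonists split, with higher means for Chrd and Nog and nearly equal means for Fst and Grem1. Chordin, encoded by Chrd, holds BMP2, BMP4 and BMP7 in an inactive complex until it is cleaved by tolloid proteases. Its log2 level was 6.04, 6.31 and 5.88 in transgenic replicates 1, 2 and 3, against 5.34, 5.88 and 5.63 in wild type replicates 1, 2 and 3. The groups met at one point, where transgenic replicate 3 (5.8800) equalled wild type replicate 2 (5.8804) to within 0.001.

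Chrd averaged 6.08 ± 0.21 in transgenic and 5.62 ± 0.27 in wild type lesions (SD, n = 3 each), a difference of 0.46 (SE 0.19, 95% interval 0.00 to 0.91), or 1.37-fold higher. The unadjusted p was 0.0483 and the adjusted p 0.561 in limma, and 3.32% of all genes had a difference as far up or further. Among the female arrays, transgenic replicate 2 lay 0.69 above the wild type mean. Leaving out 1 array at a time gave unadjusted p-values of 0.0299 to 0.167, which were under 0.05 only without transgenic replicate 3 or wild type replicate 2. Of the marker lists, the neuronal one was higher in all 8 genes, with sums of 9168 to 12371 in transgenic and 9317 to 9792 in wild type lesions. The fibroblast and meningeal list was higher in 5 of 8, with sums of 1570 to 1880 in transgenic and 893 to 1421 in wild type lesions. Their part in the Chrd difference was not tested.

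Noggin, encoded by Nog, caps the receptor-binding faces of BMP ligands and keeps the subventricular niche permissive for neurogenesis in mice. It read 5.54, 5.96 and 6.12 in transgenic and 5.69, 5.42 and 5.47 in wild type replicates 1, 2 and 3. Transgenic replicates 2 and 3 stood above all wild type arrays, while transgenic replicate 1 fell among them. The difference was 0.34 (SE 0.19, unadjusted p 0.111, adjusted p 0.654 in limma), and 0.51 without transgenic replicate 1, at an unadjusted p of 0.0149 and an adjusted p of 0.368. Without transgenic replicate 3, its highest array, the Nog difference was 0.22 at an unadjusted p of 0.317.

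Fst, which encodes follistatin and binds activins more tightly than BMPs, read 5.18, 5.30 and 5.24 in transgenic and 5.33, 5.10 and 5.43 in wild type replicates 1, 2 and 3, a difference of -0.05 (SE 0.15). Grem1, an antagonist of BMP2 and BMP4, read 4.99, 4.76 and 4.84 in transgenic and 5.17, 4.86 and 4.77 in wild type replicates 1, 2 and 3, a difference of -0.07 (SE 0.16). In both genes the groups overlapped and the differences were smaller than the SD of the wild type arrays. Adjusted p-values in limma were 0.949 for Fst and 0.928 for Grem1. Levels of 5 of the 10 genes, Bmp2, Bmp6, Fst, Grem1 and Smad6, lay under the median of all probe sets, and without detection calls it is unknown whether they rose above background.

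**Figure D3:**
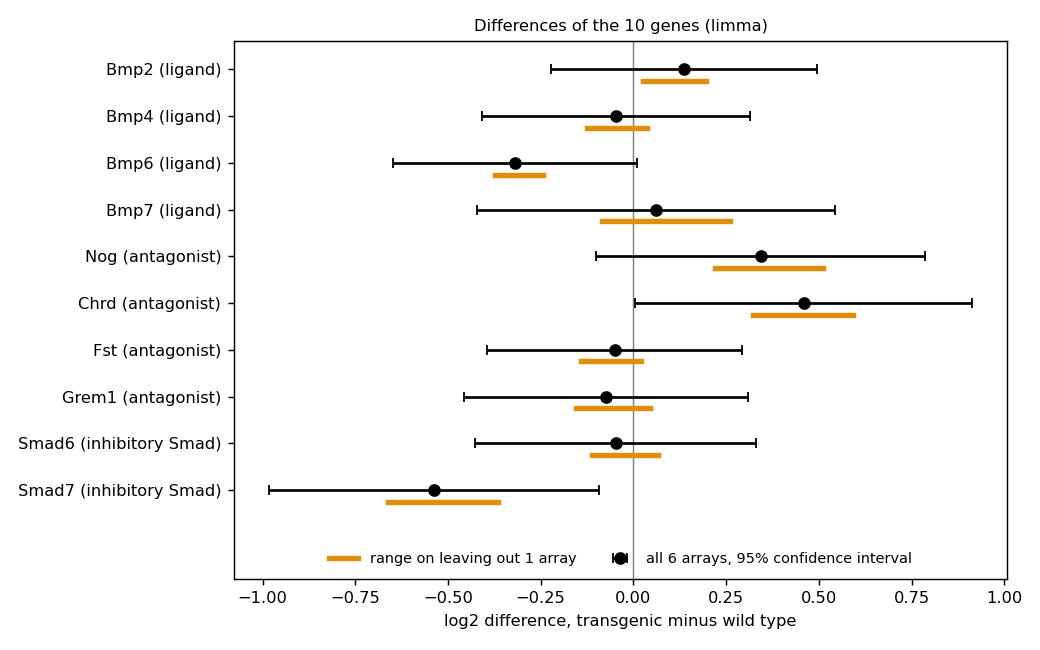
Log2 difference (transgenic minus wild type) of the 10 genes, with the 95% confidence interval in limma over all 6 arrays (black) and the range of differences on leaving out each array in turn (orange). Smad7 and Bmp6 stay below 0 and Chrd, Nog and Bmp2 above it in every such fit, whereas the ranges of Bmp4, Bmp7, Fst, Grem1 and Smad6 span 0.

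The rest of the pathway was read from 8 lists with 62 measured genes of 67. In these, 32 genes had a lower and 30 a higher mean, with a median difference of -0.02. At an unadjusted p under 0.05 there were 2 lower, Id4 and Smad4, and 2 higher, Sost and Id2, and none passed the adjusted threshold in limma. Groups did not overlap for 7 lower and 6 higher genes of the 62. Over the 22180 genes, each also read from 1 probe set, 6.98% had an unadjusted p under 0.05 in limma, and 15.4% had groups without overlap.

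Targets of the signal went both ways. Id proteins bind basic helix-loop-helix factors and keep them off DNA, and Id2 and Id4 are known to hold back oligodendrocyte differentiation. Id2 stood at 10.41, 10.72 and 10.65 in transgenic and at 10.06, 10.08 and 10.28 in wild type replicates 1, 2 and 3, every transgenic array above every wild type array. Its difference was 0.45 (SE 0.15, unadjusted p 0.0206, adjusted p 0.494 in limma). The unadjusted p of Id2 was above 0.05 without transgenic replicate 3 (0.0607), wild type replicate 1 (0.0700) or wild type replicate 2 (0.0704).

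Id4 stood at 7.40, 7.52 and 7.22 in transgenic and at 7.74, 8.07 and 8.18 in wild type replicates 1, 2 and 3, every transgenic array below. Its difference was -0.61 (SE 0.17, unadjusted p 0.00841, adjusted p 0.447 in limma), and wild type replicates 2 and 3, the arrays high in striatal genes, were its highest. With sex as a covariate the Id4 difference was -0.47 at an unadjusted p of 0.0796. Id1, the target most often used as a readout of BMP signalling, read 5.80, 6.56 and 5.82 in transgenic and 5.69, 5.56 and 5.82 in wild type replicates 1, 2 and 3. Transgenic replicate 2 alone carried its difference of 0.37 (SE 0.23, adjusted p 0.696 in limma), which was 0.12 without that array.

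The remaining targets gave smaller differences. Id3 differed by -0.09, Msx2, a homeobox factor, by -0.15, and Atoh8, a helix-loop-helix factor, by 0.03. The Notch effectors Hey1 and Hes5, which BMP signals can also raise, differed by 0.10 and 0.12. Over the 8 measured targets, 3 were lower and 5 higher, with a median of 0.06.

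**Figure D4:**
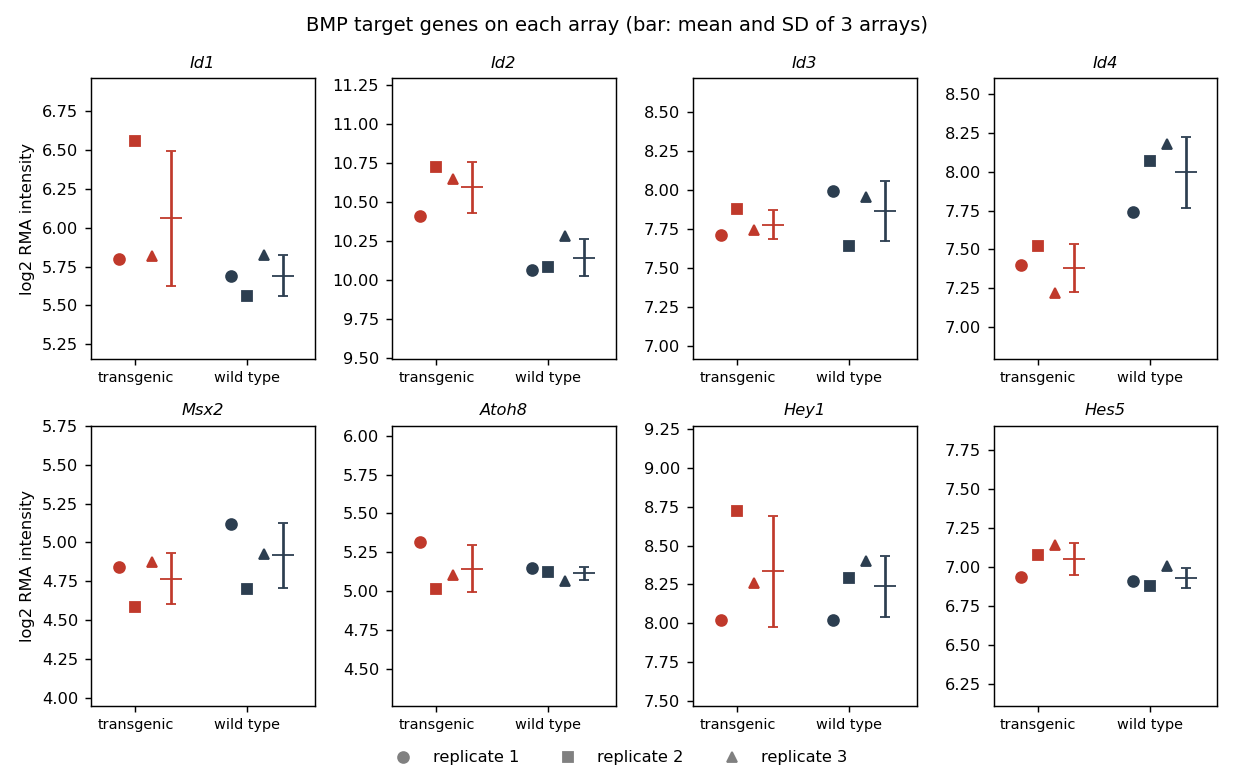
Log2 RMA intensity of the 8 measured BMP target genes on each array, transgenic left and wild type right, with symbols for replicate numbers, the bar for mean and SD of 3 arrays and equal panel heights. Id2 lies higher and Id4 lower on all 3 transgenic arrays, and Id1 is high in transgenic replicate 2 alone.

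Of the signal-carrying Smads, Smad4, the common partner, stood at 7.50, 7.67 and 7.75 in transgenic and at 8.05, 7.94 and 8.16 in wild type replicates 1, 2 and 3. Every transgenic array was lower, with a difference of -0.41 (SE 0.14, unadjusted p 0.0239, adjusted p 0.503 in limma). The unadjusted p of Smad4 was above 0.05 without wild type replicate 1 (0.0621) or wild type replicate 3 (0.0873), after median centring (0.0796) and with sex as a covariate (0.0963). Smad5 differed by -0.34 (SE 0.21), by -0.53 without transgenic replicate 2 and by 0.06 with sex as a covariate. Smad1 differed by -0.10 and Smad9 by 0.17. In Smad1, Smad5 and Smad9 the groups overlapped.

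Of 8 receptors, with the co-receptor Eng (difference 0.02) counted among them, 4 were lower and 4 higher, with a median of -0.07. This balance depended on single arrays: 2 were lower and 6 higher without transgenic replicate 1 (median 0.04), 6 lower and 2 higher without transgenic replicate 2 (median -0.03), and 1 lower and 7 higher with sex as a covariate (median 0.14). The activin type II receptors Acvr2b and Acvr2a, which BMPs also use, differed by 0.36 (SE 0.17) and 0.24 (SE 0.15). Bmpr2, the BMP type II receptor, differed by -0.32 (SE 0.26), and Acvrl1, an endothelial type I receptor, by -0.15. Bmpr2 was 8.57 in transgenic replicate 1 and 9.45 to 9.51 on all remaining arrays, and without that replicate its difference was -0.02. In the separate list of co-receptors, Bambi, a receptor decoy without a kinase, differed by -0.25, Rgmb by 0.11 and Hjv by 0.09.

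Of 9 other ligands, 5 were lower and 4 higher. Without transgenic replicate 1 there were 7 lower and 2 higher (median -0.13), without transgenic replicate 2 there were 2 lower and 7 higher (median 0.15), and with sex as a covariate 7 lower and 2 higher (median -0.20). Bmp3, a ligand that opposes the osteogenic BMPs, read 6.55, 7.01 and 6.51 in transgenic and 6.34, 6.41 and 6.21 in wild type replicates 1, 2 and 3, without overlap (difference 0.37, SE 0.18, adjusted p 0.604 in limma). The Bmp3 difference was 0.21 without transgenic replicate 2, its highest array. With sex as a covariate the Bmp3 difference was 0.69, a value that rests on that same array. Gdf5 differed by -0.19, every transgenic array below every wild type one. Gdf2, a ligand of endothelial receptors, differed by -0.30, and by -0.04 without transgenic replicate 2. Bmp5 differed by 0.22, and by 0.03 without transgenic replicate 3. Among other extracellular modulators, 6 were lower and 7 higher. Sost, which encodes sclerostin, known mainly as a Wnt inhibitor of bone, read 5.72, 5.67 and 5.67 in transgenic and 4.95, 5.12 and 5.31 in wild type replicates 1, 2 and 3. That was a difference of 0.56 (SE 0.15, unadjusted p 0.00627, adjusted p 0.430 in limma). Levels of Sost and Gdf5 lay at the 47.9th and 39.7th percentiles of all probe sets. Without detection calls it is unknown whether they rose above background. Fstl1 differed by 0.30, Crim1 by -0.17 and Twsg1 by -0.12.

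**Figure D5:**
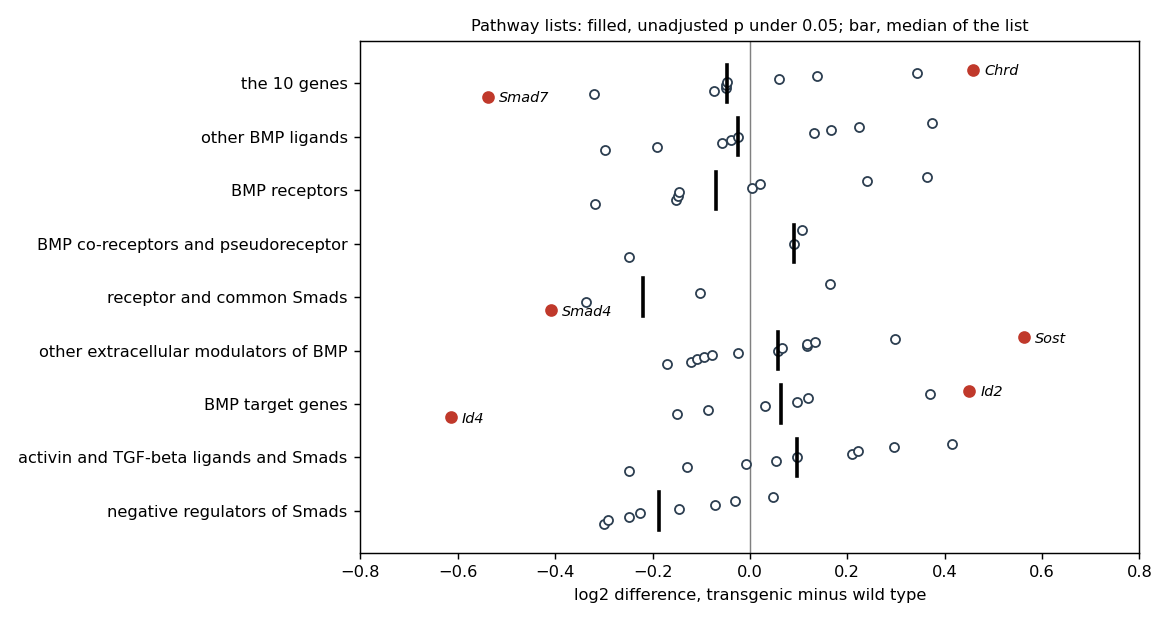
Log2 difference (transgenic minus wild type) of each measured gene in the 10 and in 8 pathway lists, filled where the unadjusted p in limma was under 0.05, with the median of each list as a bar. Most genes lie within 0.4 of 0, and the 6 filled genes are Smad7, Chrd, Smad4, Sost, Id2 and Id4.

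Genes that restrain Smads had lower means in 7 of 8, with a median of -0.19, although none reached an unadjusted p under 0.05. Over all genes 51.3% had a lower mean. Smurf1 and Smurf2, ubiquitin ligases that Smad7 brings to the receptors, differed by -0.30 (SE 0.16) and -0.29 (SE 0.16), and the corepressor Ski by -0.23 (SE 0.18). In these 3 genes the transgenic arrays were all lower than the wild type arrays, as they were for 7.6% of all probe sets. Tgif1, another corepressor, differed by -0.25. Without transgenic replicate 1, which was the lowest array for Smurf1, Smurf2 and Ski, 5 of the 8 were lower and the median was -0.06.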

How the data were processed

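Total RNA from 6 lesions was hybridised to 1 Affymetrix array each, and groups and replicate numbers come from the sample titles. The deposited values are intensities, and the submitters' processing notes name RMA and Affymetrix Expression Console for them; the sources used here give no versions, build or detection calls. RMA yields log2 values but the deposited ones are linear (array medians 40.4 to 48.3), so log2 was taken without a pseudocount. Of 41345 probe sets, 23521 had 1 gene symbol in the platform annotation, 1814 several and 16010 none.

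Groups were compared with limma 3.58.1 (R 4.3.3; lmFit, eBayes, two-sided), transgenic minus wild type, on all 6 arrays without covariates. P-values were adjusted by Benjamini-Hochberg across the 41345 probe sets, with 0.05 as threshold. Precision is limited by having 3 arrays a group: the median SE was 0.19. The fit was tested on simulated data. The 10 genes, the 8 pathway lists and 12 marker lists were chosen with earlier results of these data known. Genes named are the 10, all measured BMP targets, and up to 4 of each pathway list by smallest unadjusted p. Eng is named for its class. Marker lists appear by their level, and the precursor list also by its genes. Gfap, Xist and Eif2s3y (the last 2 from the sex list) appear as checks. Lists are described by counts and medians, without a set test.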

Additional observations from a re-analysis of the deposited data

How the results depend on the processing

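No alternative brought any of the 10 genes past the adjusted threshold. Of 145 alternative values of their differences, 14 changed sign. Many of the 145 could not. The filters of probe sets, another moderation of the variances, the replicate block and the average over probe sets all leave the difference itself unchanged. The female arrays alone repeat the differences of the sex covariate. The count is therefore no measure of how stable the signs are. Median centring turned Bmp4 to 0.006, Fst to 0.0039 and Smad6 to 0.0057, while shifting the median of all probe sets to 0.05. Sex as a covariate and the female arrays alone turned Bmp7 to -0.34 and Fst to 0.0079. The female arrays alone, with 1 transgenic array and no test, moved 4 more by over 1 SD between replicates, as the sex covariate did with the same values: 0.36 for Bmp2, -0.21 for Bmp6, -0.27 for Smad6 and -0.29 for Smad7. Leaving out 1 array gave differences on both sides of 0 for Bmp4 (-0.124 to 0.0373, positive without transgenic replicate 1), Bmp7 (-0.0849 without transgenic replicate 3 and -0.012 without wild type replicate 2, to 0.2595), Fst (-0.1415 to 0.0206, positive without wild type replicate 3), Grem1 (-0.1558 to 0.0446, positive without wild type replicate 1) and Smad6 (-0.1108 to 0.0652, positive without transgenic replicate 2 and, at 0.0204, without wild type replicate 1). Differences of Bmp2, Bmp6, Chrd, Nog and Smad7 kept their sign under every alternative run. The dim filter left out Bmp2, Bmp6, Fst, Grem1 and Smad6, and averaging probe sets changed nothing since each gene has 1.

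Of the 10 genes, 2 had an unadjusted p under 0.05, against 0 after median centring, 1 with sex as a covariate, 3 among probe sets with 1 symbol (Bmp6 joining at 0.0477), and 0 to 2 on leaving out 1 array (0 without wild type replicate 1 or 3). Of the 62 pathway genes 4 did, against 10 with sex as a covariate and 2 (without wild type replicate 1) to 7 (without transgenic replicate 2). Of all probe sets 3668 did, against 2244 of those at or above the median level, 2108 of those with 1 symbol, 8604 with sex as a covariate, and 2031 (without wild type replicate 1) to 5168 (without transgenic replicate 1), with 2253 without wild type replicate 2. The adjusted threshold was passed by 0 probe sets, against 1481 with sex as a covariate and 0 to 335 on leaving out 1 array (335 without transgenic replicate 2). The filters test fewer probe sets; otherwise the cause was not tested.

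No pairing of the arrays by replicate number was seen: deviations from the group means correlated at 0.01, -0.10 and -0.07 for numbers 1, 2 and 3. Deviations within a group of 3 sum to 0 and carry the large differences between single arrays. A small effect shared by arrays of the same number could therefore go unseen. With the replicate block, 0 probe sets passed the adjusted threshold and 2999 had an unadjusted p under 0.05, with unadjusted p 0.0499 for Smad7 and 0.0444 for Chrd (adjusted p 0.688 and 0.684). Smad4 had an unadjusted p of 0.0520 with that block.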

Other observations

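Activin and TGF-beta ligands and their Smads, which share receptors and inhibitors with the BMP branch, had 6 of 9 genes with higher means in transgenic lesions and a median difference of 0.10. Without transgenic replicate 2 there were 4 of 9 with higher means and a median of -0.01. Inhba, the subunit of activin A and the main ligand bound by follistatin, read 5.43, 5.93 and 5.44 in transgenic and 5.25, 5.24 and 5.07 in wild type replicates 1, 2 and 3. Its groups did not overlap, with a difference of 0.42 (SE 0.18, unadjusted p 0.0537, adjusted p 0.574 in limma). The level of Inhba lay at the 47.6th percentile of all probe sets, and whether it rose above background is unknown. Without transgenic replicate 2, its highest array, the Inhba difference was 0.25 at an unadjusted p of 0.126 in limma. With sex as a covariate the Inhba difference was 0.75, a value that rests on that same array. Smad3, which carries TGF-beta and activin signals, differed by 0.30, Tgfb2 by 0.22 and Ltbp1, which stores latent TGF-beta in the matrix, by 0.21, the last without overlap of the groups.

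Transgenic replicates 1 and 2 often held the extreme values, here and over all genes. Among the 72 genes (the 10 and the 62 of the pathway lists), transgenic replicate 1 was the lowest array for 20 (27.8%) and transgenic replicate 2 for 21 (29.2%). Transgenic replicate 2 was the highest for 23 (31.9%) and transgenic replicate 1 for 9 (12.5%). Over all genes transgenic replicate 1 was the lowest for 26.7% and transgenic replicate 2 for 25.4%. Transgenic replicate 2 was the highest for 29.6% of all genes and transgenic replicate 1 for 23.3%. The BMP receptors Bmpr1a and Bmpr1b, type I kinases, resembled Bmpr2 in being lowest in transgenic replicate 1. Bmpr1a was 6.75 and Bmpr1b 5.21 in transgenic replicate 1, the lowest of the 6 arrays in both, and without it their differences turned to 0.07 and 0.20. They are named here after their values were seen.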
